A study of Amphimedon queenslandica and Mnemiopsis leidyi and Nematostella vectensis with 36 samples.

Results

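The full length NRF and YY1 proteins of the marine sponge Amphimedon queenslandica were compared for the places in the sponge genome that each held in a test tube. The members are the peaks of the 4 lists made with these full length proteins, 1 for each protein and kind of DNA (native or amplified), chosen by construct and not by any measured value. They number 8342 of the 120443 peaks in the 16 lists of the series, which covers 5 factors. NRF had 769 native and 1439 amplified peaks, and YY1 had 4528 and 1606.

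DAP-seq mixes naked genomic fragments that carry sequencing adapters with a transcription factor that was translated in vitro as a HaloTag fusion, pulls the factor out by its tag and sequences the fragments that come with it. The groups were NRF (AquNRF) and YY1 (AquYY1) on native DNA, NRF and YY1 on DNA amplified beforehand (ampDAP-seq), and an empty HaloTag on each kind of DNA as control, with 1 library in each group. All of them used genomic DNA from swimming larvae at 0 h, collected from individuals of Heron Island and sheared to a mean of 200 bp. Amplified DNA had gone through 11 cycles of PCR before the protein was added, which dilutes out cytosine methylation, and all recovered DNA was amplified for 20 cycles. The DNA carried no chromatin and the proteins had no sponge cell around them, so the lists describe what each protein can hold and not what it holds in the animal. With no replicate libraries, no difference between lists could be set against replicate error and no test was made; the 95% intervals given after shares (Wilson) and medians (order statistics) cover counting error only.

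NRF1 of vertebrates, whose name the sponge NRF carries, binds as a dimer to a GC-rich site that contains CpG, and methylation of that site blocks its binding there. It is known for its place at promoters of genes for mitochondrial function and other broadly active genes. YY1 is a zinc finger protein that reads a longer site around a short core, and in vertebrates it can activate or repress and is also found at many promoters of broadly active genes. A region held by both proteins is here a place where peaks of 2 different readers of DNA overlap, which need not be the same site. No genome sequence was used here, so the sites themselves, genes and promoters are not named.

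The 4 libraries held 2449481 to 3168602 usable fragments, and the empty controls 2626764 (native) and 2865511 (amplified). The lists covered between 0.0992 and 0.563% of the effective genome size, and no list had peaks that overlapped each other. Both labels could be set against separate lists made with the isolated DNA binding domain (DBD) of the same factor. A DBD peak of its own factor was found at 39.5% of the NRF and 69.3% of the YY1 peaks on native DNA, and at 23.1% and 86.9% on amplified DNA. The NRF DBD lists hold 335 native and 501 amplified peaks, fewer than the full length NRF lists, which limits the share they can reach. The YY1 DBD lists hold 13140 and 18619 peaks, more than those of full length YY1. The DBD of the other factor was found at 25.5% of the NRF and 1.15% of the YY1 peaks on native DNA, and at 26.5% and 2.3% on amplified DNA. On amplified DNA the NRF peaks thus met the YY1 DBD list at least as often as that of the NRF DBD, but the former holds 18619 peaks and the latter 501. The peak caller's run name of the YY1 native list ends in another letter (C) than the other lists (B), and what the letter stands for was not stated; the settings in its header were the same.

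The peaks of NRF and YY1 mostly did not overlap on either kind of DNA, though a place without a peak is not shown to be unbound. Peaks of the 2 proteins were called shared when they overlapped by at least 1 bp on the same contig. On native DNA 102 places were shared, 13.3% (11.0 to 15.8) of the NRF peaks and 2.25% (1.86 to 2.73) of the YY1 peaks, which left 667 peaks with NRF only and 4426 with YY1 only. On amplified DNA 100 places were shared, 6.95% (5.75 to 8.38) of the NRF peaks and 6.23% (5.15 to 7.52) of the YY1 peaks, which left 1339 with NRF only and 1506 with YY1 only. Each shared NRF peak met exactly 1 YY1 peak and each shared YY1 peak exactly 1 NRF peak, on both kinds of DNA.

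The difference between the shares on native and amplified DNA went with the lengths of the lists. With both lists of a kind of DNA reduced to the length of the shorter one by −log10 q, 34 of 769 peaks were shared on native DNA, 4.42% (3.18 to 6.11), and 85 of 1439 on amplified DNA, 5.91% (4.80 to 7.25). The order of the 2 kinds of DNA was then reversed for NRF, and the intervals overlapped. Stricter rules lowered the shares by more than 1.5 times in some lists: with summits at most 50 bp apart the NRF shares were 7.80% and 4.59% on native and amplified DNA, and with peaks of at least 5-fold enrichment alone 9.57% and 3.53%. Lists on the same DNA also share their control library. Between lists that share none, 146 of the 1439 amplified NRF peaks, 10.1% (8.69 to 11.8), overlapped a native YY1 peak, and 45 of the 769 native NRF peaks, 5.85% (4.4 to 7.74), an amplified YY1 peak.

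Places just inside and just outside the overlap rule were few. The smallest overlaps on native DNA were 12 bp, at contig 11675, and 13 bp, at contig 13436, with summits 254 and 323 bp apart. The closest NRF and YY1 peaks that did not overlap were 8 bp apart at contig 13344 and 19 bp apart at contig 13273, with summits 276 and 206 bp apart. The smallest overlap on amplified DNA was 44 bp and the smallest gap 12 bp. Only 7 native and 4 amplified NRF only peaks had an edge within 100 bp of a YY1 peak, so near misses were few.

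On native DNA the shared part was larger among strong YY1 peaks than among weak ones, with the same order but overlapping intervals for NRF, and on amplified DNA no such order was seen. Strength is given by the caller's −log10 q, ranked within each list. Among native NRF peaks the shared part was 17.2% (12.5 to 23.2) in the strongest 25% of the list, then 15.1%, 12% and 8.81% (5.57 to 13.7) in the weakest 25%. Among native YY1 peaks it was 3.80% (2.83 to 5.08) in the strongest 25%, then 2.03%, 1.94% and 1.24% (0.738 to 2.07). On amplified DNA the parts ran 7.80%, 5.83%, 5.83% and 8.33% for NRF and 6.98%, 6.22%, 4.49% and 7.21% for YY1, with overlapping intervals throughout.

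**Figure D1:**
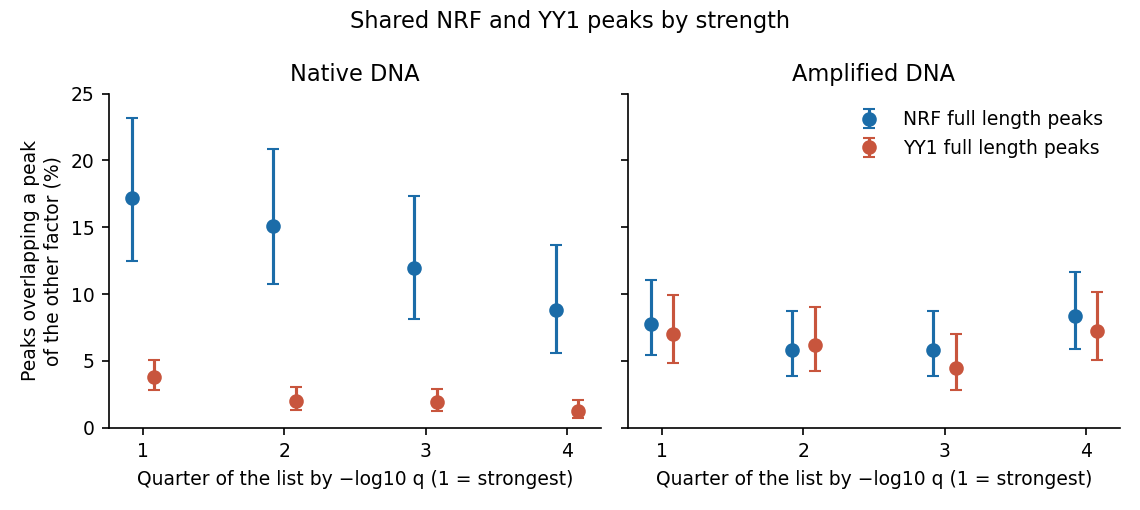
Share of NRF (blue) and YY1 (red) full length peaks that overlap a peak of the other factor, in percent, in 4 equal parts of each list from the strongest (1) to the weakest (4) by −log10 q; points are shares and bars 95% Wilson intervals. On native DNA the shares step down from 17.2 to 8.81% for NRF and from 3.80 to 1.24% for YY1, and on amplified DNA they show no such step.

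How strength for NRF went with strength for YY1 at the same place depended on the measure. Of the 102 native shared places, 33 were in the strongest 25% of the NRF list, 43 in the strongest 25% of the YY1 list and 16 in both. Of the 100 amplified ones these numbers were 28, 28 and 13. Spearman's rho between the NRF and YY1 ranks was 0.20 over the 102 native and 0.47 over the 100 amplified places, and between their fragments at the summit 0.51 and 0.58. This describes places, which are not replicates, and the lists share a control library and its local depth. Relative to its list, the NRF peak ranked higher at 48 of 102 native and 49 of 100 amplified places.

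Fold enrichment, the authors' ratio of fragments at a summit to the local background, is described within each list. Native NRF peaks had a median of 4.81 (4.38 to 5.73) where shared and 4.16 (3.98 to 4.42) where NRF only, and native YY1 peaks 5.51 (4.70 to 5.92) and 4.86 (4.77 to 4.93). Amplified NRF peaks had 6.98 (5.07 to 9.95) where shared and 7.65 (7.26 to 8.06) where NRF only, and amplified YY1 peaks 4.84 (4.19 to 5.88) and 5.06 (4.93 to 5.25). The very strongest NRF peaks on amplified DNA were all NRF only: the highest shared one had rank 45, whereas on native DNA the NRF peak of rank 1 was shared.

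Local background differed between the classes with intervals apart for native YY1 peaks only. Fragments at the summit divided by fold enrichment give a measure of this background, and values above 12 were called high here after the values had been seen. They occurred at 8.82% (4.71 to 15.9) of the shared and 1.45% (1.13 to 1.84) of the YY1 only peaks on native DNA, and at 17.0% (10.9 to 25.5) and 9.96% (8.55 to 11.6) on amplified DNA. For NRF they occurred at 8.82% (4.71 to 15.9) of shared and 7.20% (5.47 to 9.41) of NRF only peaks on native DNA. On amplified DNA the NRF shares were 14.0% (8.53 to 22.1) and 11.2% (9.62 to 13.0). Without peaks of high background, 93 of 712 native and 82 of 1275 amplified NRF peaks were shared, 13.1% and 6.43%.

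The strongest shared places were held by the DBD of both factors as well. On native DNA the lowest sum of the 2 ranks belonged to contig 13511, positions 214213 to 214431 for NRF (rank 44, 12.5-fold) and 214267 to 214546 for YY1 (rank 22, 13.2-fold), with summits 109 bp apart. It was followed by contig 13474, positions 329029 to 329247 for NRF (rank 16) and 329036 to 329244 for YY1 (rank 60), with summits 56 bp apart. The third was contig 13228, positions 112669 to 112976 for NRF (rank 39) and 112690 to 113066 for YY1 (rank 40), with summits 17 bp apart. The same places on contigs 13228 and 13511 came first and second on amplified DNA, with summits 21 and 116 bp apart. The third there, contig 13253 with NRF at positions 31987 to 32247 (rank 124) and YY1 at 31935 to 32228 (rank 26), had no native NRF peak. At all of these places the NRF DBD and the YY1 DBD both had a peak on the same DNA.

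Where both proteins had a peak, their summits lay farther apart than repeated summits of the same protein. The median distance between NRF and YY1 summits was 43 bp (35 to 53) over the 102 native and 28.5 bp (21 to 41) over the 100 amplified places. The middle 50% of places ran from 19 to 76 bp on native and from 15 to 65 bp on amplified DNA. On native DNA 60 pairs were within 50 bp, 14 within 10 bp and 15 more than 100 bp apart, and on amplified DNA 66, 22 and 13. The largest distances were 359 and 179 bp.

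Lists of the same protein show how well a summit is placed. The NRF summits on native and amplified DNA were a median of 6 bp apart (5 to 7, 384 pairs), and those of YY1 12 bp (11 to 14, 1209 pairs). Between full length protein and DBD the medians were 6 and 7 bp for NRF and 17 and 13 bp for YY1, on native and amplified DNA in that order. Within 50 bp lay 94.0% of the NRF and 87.9% of the YY1 pairs across DNA, against 58.8% of the native and 66.0% of the amplified NRF and YY1 pairs.

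**Figure D2:**
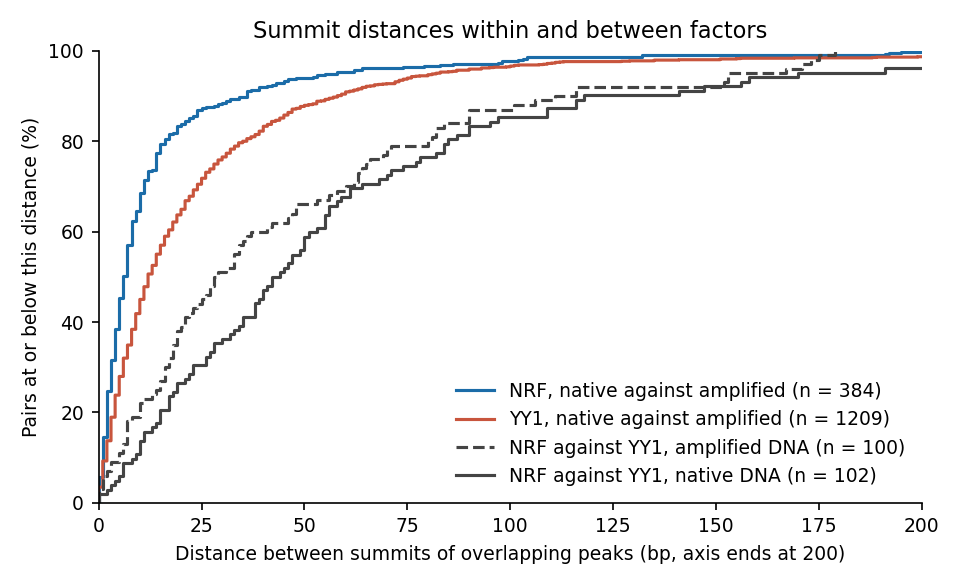
Cumulative share of overlapping peak pairs, in percent, by the distance between their summits in bp, for the same protein on both kinds of DNA (blue NRF, red YY1) and for NRF against YY1 on each DNA (grey). The curves of the same protein rise fastest, with medians of 6 and 12 bp against 28.5 and 43 bp between the proteins.

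Distances of similar size were found between either protein and other factors. NRF summits were a median of 43 bp from those of the EGR DBD, 38 bp from the GLI DBD and 50 bp from full length SP41 on native DNA, and 27, 29.5 and 37.5 bp on amplified DNA. YY1 summits were 60, 60 and 50 bp from them on native DNA and 27, 33 and 34.5 bp on amplified DNA. In each of these 6 cases the distance was smaller on amplified DNA, as it was between NRF and YY1. The medians went with strength in no single direction: native pairs of 2 stronger peaks, each above its list's median rank, had 39.5 bp (30 to 50, 44 pairs) and of 2 weaker ones 43.5 bp (21 to 77, 18 pairs), and amplified ones 22 bp (16 to 33) and 19 bp (10 to 36). Pairs of a stronger and a weaker peak had the highest medians, 49 bp (27 to 84, 40 pairs) on native and 59.5 bp (33 to 82, 36 pairs) on amplified DNA, with intervals that overlapped or touched those of the other pairs.

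By contig position, neither protein was always on the same side. The direction of the sites was not known, since no sequence was used. These counts therefore cannot show whether the proteins had a fixed order relative to their sites. The YY1 summit had the higher position at 50 native and 55 amplified places and the NRF summit at 50 and 42, with equal positions at 2 and 3. One peak lay fully inside the other at 30 native and 45 amplified places. The overlap had a median of 157.5 bp on native and 151 bp on amplified DNA.

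Examples at both ends of the spacing come from places where both peaks were among the stronger ones of their lists. At contig 13012, NRF positions 45143 to 45333 and YY1 positions 45164 to 45302 had the same summit on native DNA. At contig 13382, with NRF at positions 26447 to 26708, the native summits were 2 bp apart. At contigs 13442 and 13448 the amplified summits were 3 bp apart, with a local background of 12.4 for YY1 at the latter. The widest native pair, 359 bp, was at contig 13491, where the YY1 peak at positions 122419 to 123140 is 722 bp long, and the next, 158 bp, at contig 13447. On amplified DNA the widest were 153 bp at contig 13508 and 152 bp at contig 13464.

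Peaks of 1 protein alone were mostly far from the other protein. On native DNA 174 of the 667 NRF only peaks had no YY1 peak on their contig, and the other 493 had the nearest YY1 summit at a median of 7772 bp (6928 to 8671). Of the 4426 YY1 only peaks, 1936 had no NRF peak on their contig, and the rest had the nearest NRF summit at 39624 bp (36976 to 41817). On amplified DNA 505 of 1339 NRF only peaks and 480 of 1506 YY1 only peaks had no such neighbour, and the medians for the rest were 20198 and 25063 bp. Neighbours within 1000 bp were rare, at 41 NRF only and 43 YY1 only peaks on native and 28 and 32 on amplified DNA.

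The lists looked up differed in their number of peaks, and the part of this in the distances was not tested. The nearest YY1 summit was 7772 bp from native NRF only peaks and 7185 bp from native YY1 only peaks themselves. The nearest other NRF summit was 20947 bp (17517 to 26197) from native NRF only peaks. From native YY1 only peaks, which by definition overlap no NRF peak, the nearest NRF summit was 39624 bp (36976 to 41817) away. On amplified DNA these medians were 22898 bp (20305 to 25246) and 25063 bp (22829 to 27416), with overlapping intervals. With lists of equal length the medians between the proteins on native DNA were 30453 bp from NRF and 35643 bp from YY1, and on amplified DNA 21457 and 25677 bp.

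Shared peaks had higher median widths than the others, with overlapping or touching intervals for NRF. On native DNA NRF peaks had a median width of 210.5 bp (189 to 220) where shared and 193 bp (189 to 201) where NRF only, and YY1 peaks 207 bp (195 to 218) and 183 bp (181 to 185). The medians on amplified DNA were 209 bp (186 to 220) and 182 bp (178 to 186) for NRF and 200 bp (179 to 215) and 174 bp (172 to 176) for YY1. A wider peak has more base pairs with which to meet another, so width enters the rule. The caller also sets the shortest peak to the library's fragment size, 140 and 138 bp for native NRF and YY1 and 133 and 139 bp for the amplified lists, so widths are not set side by side across lists.

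Width also goes with strength. Among native peaks above the median rank of their list, NRF peaks had 219.5 bp (209 to 241) where shared and 229 bp (215 to 237) where NRF only, and YY1 peaks 224 bp (210 to 230) and 206 bp (202 to 208). Among the weaker ones, native NRF peaks had 173 and 169 bp and native YY1 peaks 179.5 and 162 bp. On amplified DNA the stronger NRF peaks had 219 and 212 bp and the weaker ones 174 bp (157 to 198) and 154 bp (152 to 156). Amplified YY1 peaks had 210 and 190 bp among the stronger and 177 and 162 bp among the weaker ones. In the same part of a list the median was thus higher for shared peaks in 7 of the 8 comparisons, but the intervals were apart in 2 of them only, the stronger native YY1 and the weaker amplified NRF peaks.

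**Figure D3:**
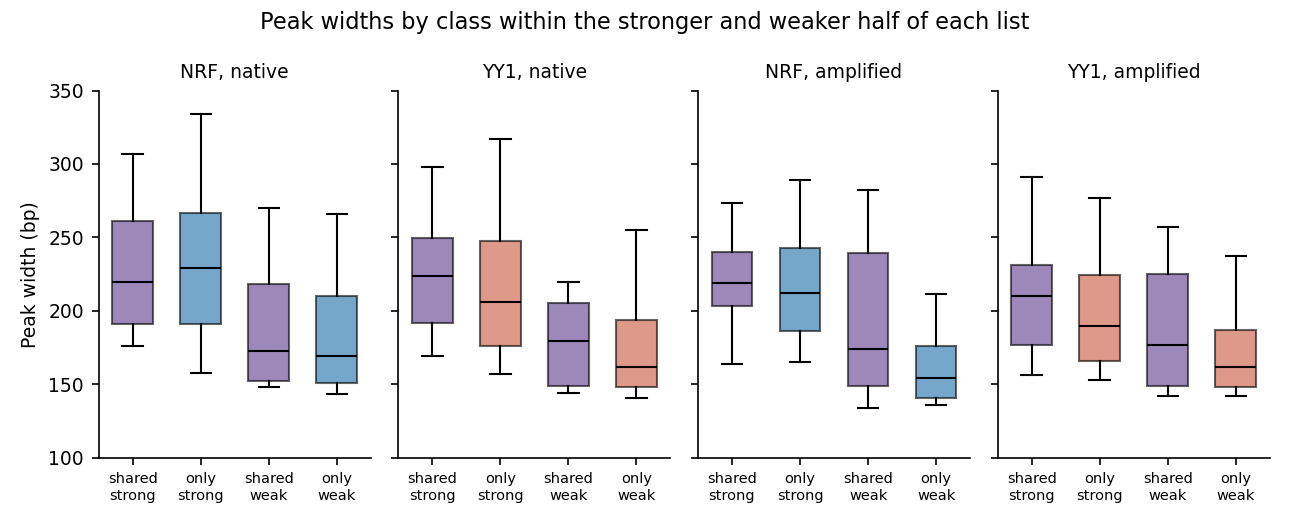
Peak width in bp for shared and single-protein peaks, in the stronger and weaker part of each of the 4 lists by median rank; boxes span the middle 50% of peaks, lines are medians and whiskers run from the 10th to the 90th percentile. Stronger peaks are wider than weaker ones in every list, and the gap between shared and single-protein peaks is smaller than that.

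Whether a class was kept on the other DNA differed between the lists, which also differ in length. A peak was followed to the other DNA by the peaks it overlapped there, of NRF, of YY1, of both or of neither. Of the 102 native shared places, counted by their NRF peak, 31 (30.4%, 22.3 to 39.9) were shared on amplified DNA too, 33 had NRF only, 10 had YY1 only and 28 had no peak. Of the 100 amplified shared places, 31 (31.0%, 22.8 to 40.6) were shared on native DNA, 2 had NRF only, 37 had YY1 only and 30 had no peak. With lists of equal length on each kind of DNA, 19 of 34 native shared places (55.9%, 39.5 to 71.1) and 19 of 85 amplified ones (22.4%, 14.8 to 32.3) were shared on the other DNA.

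Seen from native DNA, NRF was thus the protein more often found again at shared places, and seen from amplified DNA it was YY1. In each case this was the protein whose own list was longer on the DNA looked up than on the DNA it was followed from. It was not always the longer of the 2 lists there, since YY1 had more amplified peaks than NRF. NRF had 769 native and 1439 amplified peaks, and YY1 had 4528 and 1606. The part of list length was not tested. Native shared places had an NRF peak on amplified DNA in 62.7% (53.1 to 71.5) of cases and a YY1 peak, counted by their YY1 peak, in 41.2% (32.1 to 50.9). Amplified shared places had a native NRF peak in 33.0% (24.6 to 42.7) and a native YY1 peak in 68.0% (58.3 to 76.3). Over the whole lists, 49.9% of the native NRF peaks and 26.6% of the native YY1 peaks had a peak of the same protein on amplified DNA, and 26.7% of the amplified NRF and 75.2% of the amplified YY1 peaks had one on native DNA. Native shared places therefore lay above the figures of both whole lists, and the intervals of the amplified shared places included the figures of both whole lists.

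Single-protein peaks met the other protein on the other DNA at 0.600% (native NRF only) and 1.85% (native YY1 only). For amplified NRF only and amplified YY1 only peaks the shares were 5.83% and 0.797%. Over all peaks of the same lists, shared ones included, they were 5.85%, 3.22%, 10.1% and 2.80% in that order. Of the 667 native NRF only peaks, 318 (47.7%, 43.9 to 51.5) were NRF only on amplified DNA, 2 were shared, 2 had YY1 only and 345 had no peak. Of the 4426 native YY1 only peaks, 1126 (25.4%, 24.2 to 26.7) were YY1 only, 37 were shared, 45 had NRF only and 3218 had no peak. Of the 1339 amplified NRF only peaks, 318 (23.7%) were NRF only on native DNA, 33 were shared, 45 had YY1 only and 943 had no peak. Of the 1506 amplified YY1 only peaks, 1130 were YY1 only on native DNA, 10 were shared, 2 had NRF only and 364 had no peak.

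**Figure D4:**
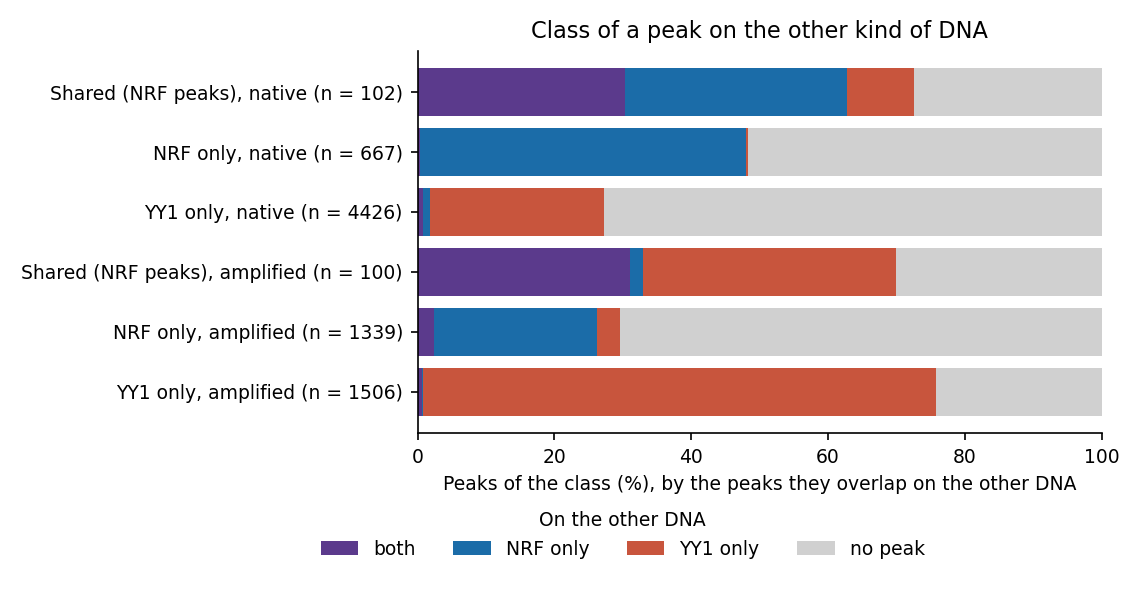
Share of peaks in each class, in percent, by what they overlap on the other kind of DNA: peaks of both proteins (purple), of NRF only (blue), of YY1 only (red) or none (grey). About 30% of shared places are shared again in either direction, and places left with 1 protein hold mostly NRF when followed from native DNA and mostly YY1 when followed from amplified DNA.

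Strength went with being found again in every class. The strongest 25% of native NRF peaks had an amplified NRF peak at 33 of 33 shared and 157 of 159 NRF only places, and the weakest 25% at 0 of 17 and 7 of 176. The interval of the 0 of 17 reaches 18.4%. The strongest 25% of native YY1 peaks had an amplified YY1 peak at 35 of 43 shared (81.4%, 67.4 to 90.3) and 704 of 1089 YY1 only places (64.6%, 61.8 to 67.4). In the strongest 25% of amplified NRF peaks a native NRF peak was found at 18 of 28 shared and 198 of 331 NRF only places, 64.3 and 59.8%. Compared within the same strength class of a list, the intervals of shared and single-protein places overlapped in 14 of 16 cases. The exceptions went in opposite directions: in the second 25% of amplified NRF peaks 12 of 21 shared (57.1%, 36.5 to 75.5) and 105 of 339 NRF only places (31.0%, 26.3 to 36.1) had a native NRF peak, and in the weakest 25% of amplified YY1 peaks 5 of 29 shared (17.2%, 7.6 to 34.5) and 167 of 373 YY1 only places (44.8%, 39.8 to 49.8) had a native YY1 peak.

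Taking the 4 lists as a whole, the peaks merged into 6531 regions, of which 218 held both proteins on at least 1 kind of DNA, 12% of the 1824 NRF regions and 4.43% of the 4925 YY1 regions. All 4 lists met in 31 regions. Another 33 had NRF on both kinds of DNA and YY1 on native DNA only, and 37 had YY1 on both and NRF on amplified DNA only. In 45 regions NRF was found on amplified and YY1 on native DNA, so that they were never shared on the same DNA. The remaining ones had the pair on amplified DNA only (30), on native DNA only (27), or another combination (11, 2 and 2).

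The 31 regions with all 4 lists showed how far a spacing repeats. Their NRF summits on native and amplified DNA were a median of 9 bp apart (6 to 14) and their YY1 summits 11 bp (6 to 24), while NRF and YY1 summits were 50 bp (35 to 56) apart on native and 28 bp (22 to 56) on amplified DNA. The side of YY1 was the same on both kinds of DNA in 25 regions and opposite in 5, and in 1 region the summits coincided on amplified DNA. Among the 19 regions with at least 20 bp between the proteins on both kinds of DNA, the side was the same in 18. Pearson's r between the signed offsets was 0.83 and Spearman's rho 0.74 over the 31 regions, as a description. The libraries on native and amplified DNA had different controls, and each pair of lists was made from the same protein.

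**Figure D5:**
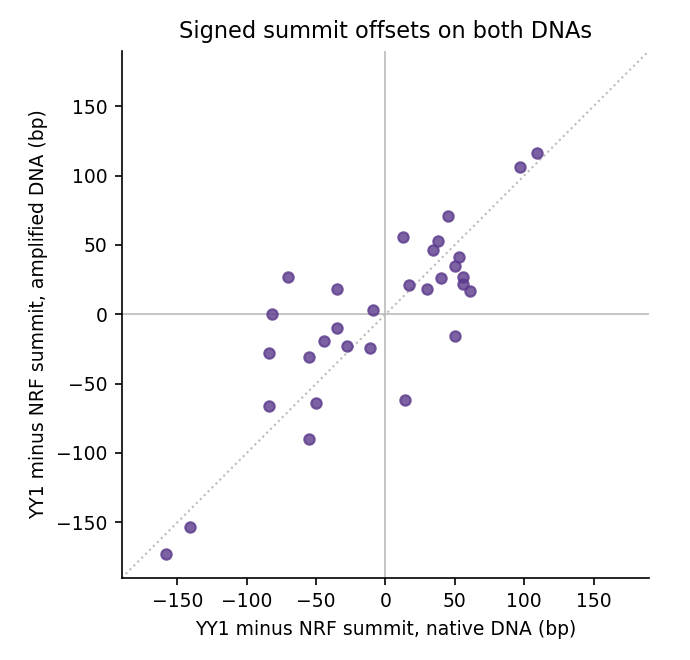
Signed distance from the NRF to the YY1 summit in bp on native (x axis) and amplified DNA (y axis) in the 31 regions where all 4 lists have a peak; each point is a region and the dotted line marks equal offsets. Most points lie in the quadrants of equal sign, with 25 of 31 on the same side.

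Offsets in the DBD lists, which come from other libraries, mostly had the same side. Where a native shared place also had a peak of both DBD constructs, which was so at 41 places, the offset between the DBD summits had Pearson's r of 0.70 with that of the full length proteins. Among the 24 of them with at least 20 bp in both, the side was the same in 22. On amplified DNA there were 24 such places with r of 0.89, and the side was the same in 8 of 8.

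The region with the lowest sum of ranks was at contig 13228, positions 112669 to 113066. NRF had 117 fragments at its summit and 11.2-fold enrichment on native DNA and 293 fragments and 32.6-fold on amplified DNA, and YY1 had 96 fragments and 12.1-fold and 215 fragments and 17.9-fold. The summits moved by 1 bp for NRF and by 5 bp for YY1 between the kinds of DNA, and YY1 was 17 and 21 bp to the higher side. At contig 13511, positions 214213 to 214546, the offset was 109 bp on native and 116 bp on amplified DNA. These 2 regions thus hold a narrow and a wide spacing, each repeated to within 7 bp. Local background at contig 13511 was above 12 on amplified DNA, 13.0 for NRF and 17.5 for YY1.

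The next regions in this order were contig 13516, positions 135838 to 136125 (offsets 40 and 26 bp), contig 12982, positions 47472 to 47773 (−44 and −19 bp), and contig 12266, positions 12165 to 12440 (−35 and 18 bp), where the side changed and local background was 22.3 to 40.5 in the 4 lists. After them came contig 13445, positions 258672 to 258983 (34 and 46 bp), contig 13421, positions 95236 to 95432 (−35 and −10 bp), and contig 13474, positions 329027 to 329247 (56 and 27 bp). In the last, YY1 had rank 60 of 4528 on native but 743 of 1606 on amplified DNA, whereas NRF had ranks 16 and 48.

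Changes of class are shown by the strongest place of each kind. The strongest NRF peak on native DNA, at contig 13273, positions 8426 to 8754, with 478 fragments and 13.1-fold enrichment, was shared with a YY1 peak of rank 652 and 2.91-fold enrichment at positions 8555 to 8778. On amplified DNA NRF had rank 4 there, with 1247 fragments and 13.9-fold enrichment, and YY1 had no peak. Local background at this place was high, 36.5 for native NRF, 40.3 for native YY1 and 89.7 for amplified NRF. At contig 13514, positions 588795 to 589044, YY1 had rank 9 on native DNA and rank 15 on amplified DNA, while the native NRF peak beside it had rank 495 and no counterpart on amplified DNA. At contig 13253, YY1 had rank 47 on native DNA at positions 31953 to 32207, with no NRF peak on that contig, and on amplified DNA NRF was there with rank 124, 160 fragments and 24.7-fold enrichment.

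Other changes rested on weak peaks. The stronger of the 2 native NRF only places that were shared on amplified DNA was contig 13485, positions 241593 to 241792 (rank 220), where the amplified YY1 peak had rank 1404 of 1606. Of the 2 that passed to YY1 only, the stronger was contig 11005, positions 7826 to 8067, with rank 456 for NRF and 1262 for YY1. The strongest of the 45 native YY1 only places that passed to NRF only was contig 11730, positions 2390 to 2939 (rank 502), where the amplified NRF peak had rank 1174 of 1439 and its summit lay 412 bp away, at a local background of 22.6.

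The strongest single-protein peaks are named with the peaks around them. For scale, 26.1% of all native NRF only peaks had no YY1 peak on their contig. The others had the nearest YY1 summit at a median of 7772 bp. Contig length was not considered. The strongest native NRF only peaks were at contig 13405, positions 87125 to 87445, and on contig 12812 at positions 38342 to 38919 and 40172 to 40597, with ranks 2, 3 and 4. The first was 33937 bp from the nearest YY1 summit, contig 12812 had no YY1 peak, and all of them were NRF only on amplified DNA. On amplified DNA they were contig 13038, positions 59929 to 60240, with 143-fold enrichment, contig 13373, positions 64453 to 64803, with 111-fold, and contig 13384, positions 69409 to 69710, with 73.7-fold. The one on contig 13373 had no full length peak of either protein on native DNA, and the one on contig 13038 met a YY1 DBD peak. Local background was 16.5 at the native peak on contig 13405.

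For YY1 the strongest native peaks without NRF were at contig 3679, positions 90 to 345, contig 13520, positions 6113 to 6470, and contig 5552, positions 91 to 333, all of them YY1 only on amplified DNA too. On amplified DNA they were contig 13495, positions 247623 to 247883 (34.3-fold), contig 13520, positions 6131 to 6459 (8.23-fold with 779 fragments), and contig 13476, positions 52393 to 52673 (45.7-fold). Each of them had a YY1 DBD peak on the same DNA and a YY1 full length peak on the other DNA. Local background was 14.5 on native and 94.7 on amplified DNA at contig 13520, and 13.0 on native DNA at contig 3679.

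The separate lists of the isolated binding domains differed between the classes, and part of this is built into the classes. A shared peak overlaps a full length peak of the other factor, and the DBD of that factor often met such peaks. Over whole lists the DBD met 69.3% of the YY1 and 39.5% of the NRF peaks of its own factor on native DNA. On amplified DNA it met 86.9% and 23.1%. A YY1 DBD peak was found at 85.3% (77.1 to 90.9) of the native NRF peaks that were shared and at 16.3% (13.7 to 19.3) of those that were NRF only. On amplified DNA these shares were 86.0% (77.9 to 91.5) and 22.1% (20.0 to 24.4). An NRF DBD peak was found at 47.1% (37.7 to 56.7) of the native YY1 peaks that were shared and at 4 of the 4426 that were YY1 only, and on amplified DNA at 26.0% (18.4 to 35.4) and at 11 of 1506. Thus 109 native and 296 amplified NRF only peaks did meet the YY1 protein in its DBD form, whose lists of 13140 and 18619 peaks are longer than those of full length YY1.

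At its own factor's peaks the DBD depended less on the class. The NRF DBD was found at 47.1% of shared and 38.4% (34.8 to 42.1) of NRF only peaks on native DNA and at 26.0% and 22.9% on amplified DNA, with overlapping intervals. The YY1 DBD was found at 86.3% (78.3 to 91.6) of shared and 68.9% (67.6 to 70.3) of YY1 only peaks on native DNA, and at 87.0% and 86.9% on amplified DNA.

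Peaks of further zinc finger proteins, EGR (DBD), GLI (DBD) and SP41 (full length and DBD), had higher shares at shared places, with overlapping intervals for NRF on native DNA. At least 1 of these was found at 39.4% of all native NRF and 23.4% of all native YY1 peaks, and at 36.3% and 31.6% of the amplified ones. Among native YY1 peaks the share was 47.1% (37.7 to 56.7) at shared and 22.8% (21.6 to 24.1) at YY1 only places, and among amplified ones 54.0% (44.3 to 63.4) and 30.1% (27.8 to 32.4). Among NRF peaks it was 48.0% (38.6 to 57.6) against 38.1% (34.5 to 41.8) on native and 54.0% (44.3 to 63.4) against 35.0% (32.5 to 37.6) on amplified DNA.

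Single factors are given list by list. At native NRF peaks all intervals overlapped, with SP41 full length at 25.5% of shared and 15.3% of NRF only peaks. GLI had 16.7 and 14.7% there and EGR 20.6 and 16.0%. Amplified YY1 peaks had SP41 full length at 30.0% (21.9 to 39.6) of shared and 18.3% (16.4 to 20.3) of YY1 only ones. GLI had 18.0% (11.7 to 26.7) and 6.51% (5.37 to 7.87) there, and EGR 7.00 and 7.97%. No comparison at matched strength was made. At amplified shared NRF peaks SP41 full length was found in 30.0% (21.9 to 39.6) against 17.2% (15.3 to 19.3) at NRF only peaks, GLI in 18.0% (11.7 to 26.7) against 10.5% (8.93 to 12.2) and EGR in 7.00% (3.43 to 13.7) against 10.9% (9.34 to 12.7), so that the intervals were apart for SP41 alone. At native shared YY1 peaks SP41 full length was found in 26.5% (18.9 to 35.8) against 9.22% (8.40 to 10.1) at YY1 only peaks, GLI in 16.7% (10.7 to 25.1) against 7.61% (6.87 to 8.43) and EGR in 19.6% (13.1 to 28.4) against 10.7% (9.83 to 11.7), with intervals apart for each. Of the 31 regions with all 4 lists, the YY1 DBD was found at 29 on native and 31 on amplified DNA, the NRF DBD at 23 and 13, the SP41 DBD at 12 and 16, full length SP41 at 10 and 14, EGR at 6 and 2, and GLI at 6 and 4. Over all native NRF peaks the SP41 DBD was found at 21.3%, full length SP41 at 16.6%, EGR at 16.6% and GLI at 15.0%. Over all amplified NRF peaks these shares were 24.5, 18.1, 10.6 and 11.0%. Over all YY1 peaks they were 12.2, 9.61, 10.9 and 7.82% on native and 20.6, 19.0, 7.91 and 7.22% on amplified DNA. The empty library served as control for every list on its kind of DNA, and its part in these co-occurrences was not tested.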

How the data were processed

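Peaks of 16 DAP-seq and ampDAP-seq libraries were deposited as 1 list per library, and the 4 lists of full length NRF and YY1 were used together with the DBD, EGR, GLI and SP41 lists. Per the file headers, the authors called each list with MACS2 2.1.2 on paired-end fragments at a q cutoff of 0.05, keeping 1 duplicate, scaling the larger library down, with the empty HaloTag library of the same DNA as control and an effective genome size of 166679601 bp. The submitters' processing notes name MACS2, CASAVA 1.8.2, Bowtie, Bowtie2, BS-Seeker2 and fastp; the aligner of these libraries and the genome build of the contig positions are not given in the sources used here. The deposited pileup is a signal (fragments at the summit), the deposited fold enrichment is a ratio to the local background, and the deposited −log10 p and −log10 q are the caller's scores; all of them are the authors' values and rank peaks within a list only.

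Groups were taken from the labels. Overlap (at least 1 bp), summit distance, width and nearest neighbours were computed with Python 3.11.15, pandas 2.3.3, numpy 2.4.6 and scipy 1.17.1 and tested on simulated lists, of which 2 of 2 were recovered, and 4 of 4 counts equalled those of bedtools 2.31.1. Named regions were, per DNA, the 3 shared places of lowest rank sum, the 3 strongest of each single class and the 2 narrowest and 2 widest spacings among stronger peaks, then the 8 lowest rank sums with all 4 lists and the strongest place of each change of class. The comparison and lists were chosen with earlier results of these data known. Alternatives were −log10 q of at least 5, fold of at least 5, equal list lengths, summits within 50 bp and a reciprocal overlap of 50%, plus 1 chosen after seeing the data, without peaks of local background over 12. No genome sequence was used here.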

Additional observations from a re-analysis of the deposited data

Results flagged for a closer look

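The number of peaks moved in opposite directions with amplification of the DNA. The log2 ratio of peak numbers, amplified over native DNA, was 0.90 for NRF and −1.50 for YY1. The share of shared peaks, amplified minus native DNA, was −6.31 percentage points for NRF and 3.97 percentage points for YY1. Neither difference was tested, since each value rests on 1 library. With lists of equal length the share for either protein was 4.42% on native and 5.91% on amplified DNA, so that the direction for NRF was not kept.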

How the results depend on the processing

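Of 48 alternative values, 26 stayed within the counting interval of the reported value and 22 lay outside it. No calls were made, so no direction of a call could change. The order of native and amplified DNA was not always kept: with equal list lengths it was reversed for the NRF share. With fold enrichment of at least 5 the shares of shared peaks were 9.57% of native NRF, 1.40% of native YY1, 3.53% of amplified NRF and 4.24% of amplified YY1 peaks. With summits within 50 bp they were 7.80%, 1.33%, 4.59% and 4.11%, and the median distances were 23 bp on native and 18 bp on amplified DNA, by construction of that rule. With a reciprocal overlap of 50% the native shares were 10.3% and 1.74%, and with equal list lengths 4.42% for both. With −log10 q of at least 5 the amplified shares were 5.30% and 4.89%. The share of native shared places shared again was 44.1% with −log10 q of at least 5, 21.7% with summits within 50 bp and 55.9% with equal lengths, and that of amplified ones 47.6%, 22.7% and 22.4%. Apart from the alternatives' own construction, the cause was not tested. No paired analysis was possible because each group has 1 library. A place without a peak is not shown to be unbound, and no comparison at matched depth was made.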

Other observations

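The isolated binding domains were compared with each other in the same way. Of the 335 native NRF DBD peaks, 89 (26.6%, 22.1 to 31.5) overlapped a YY1 DBD peak, with a median summit distance of 51 bp, and of the 501 amplified ones 145 (28.9%, 25.1 to 33.1), with 29 bp. The same overlaps are a small part of the 13140 native and 18619 amplified YY1 DBD peaks, and the native count is below the 102 pairs of the full length proteins. The YY1 DBD lists cover 1.80 and 2.49% of the effective genome size, against 0.563 and 0.187% for full length YY1.

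Peaks were spread over many contigs. On native DNA 294 contigs had peaks of both proteins, 144 of NRF only and 1017 of YY1 only, and on amplified DNA 346, 407 and 393. The shared places lay on 85 contigs on native and 90 on amplified DNA. A pair of the strongest native NRF only peaks, at positions 38342 to 38919 and 40172 to 40597, lay on contig 12812, which had no YY1 peak.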
